A study of Mus musculus with 4 samples.

Results

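The genes of the constitutive proteasome were described in mouse embryonic stem cells with and without the microRNA cluster miR-290-295. Members were the protein-coding genes whose symbols name subunits of the 20S core (Psma1 to Psma7, Psmb1 to Psmb7), the ATPases and other subunits of the 19S cap (Psmc, Psmd and Adrm1), the activators and the inhibitor (Psme1 to Psme4 and Psmf1) and the assembly chaperones Psmg1 to Psmg4. The rule found 44 genes of 55421 identifiers in the count table, and all 44 passed the filter on low counts. They were grouped by role into 7 alpha and 7 beta subunits of the core, 10 subunits of the 19S base, 8 of the lid, 5 activators and inhibitor, and 7 assembly factors. Knockout cells (KO, n = 2 libraries) lack the cluster, and wild-type cells (WT, n = 2 libraries) carry it. Both are E14 cells of the 129/Ola background, derived from a blastocyst and grown on gelatin in serum with the cytokine LIF, with no other allele or treatment named. The series' design text describes the libraries as biological duplicates. Whether each KO library is a clone of its own is not stated, and the p-values therefore reflect library-to-library spread alone, which may be technical.

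The proteasome degrades proteins that carry ubiquitin chains. Its barrel-shaped core holds the proteolytic sites inside, on the beta subunits encoded by Psmb5, Psmb6 and Psmb7, while the alpha rings form the gate. The 19S cap binds the core: the base unfolds the substrate with a ring of ATPases, and the lid removes the ubiquitin chain. Other caps, such as the PA28 ring of PSME1 and PSME2, open the gate without ubiquitin recognition, and interferon is known to raise them together with the immunoproteasome subunits PSMB8, PSMB9 and PSMB10, which replace PSMB5, PSMB6 and PSMB7. Embryonic stem cells are known for high proteasome activity.

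The libraries held between 9925557 and 12726123 counts. Mir295, in the deleted cluster, had 80 and 22 counts in the WT libraries and 0 in both KO libraries, which at this depth allows up to 0.236 and 0.255 CPM (counts per 1000000). The 10 stem cell markers, among them Pou5f1, Sox2 and Nanog, summed to between 3822 and 4221 CPM per library. Of these markers, 1 was higher in KO (Fgf4, log2 fold change 0.80, KO over WT). The 2 that were lower were Klf4 (-1.59) and Utf1 (-0.91), so the similar sums do not show an unchanged marker set. Markers of primitive endoderm, another lineage of the blastocyst, summed to 27.0 and 25.9 CPM in KO and 181 and 202 in WT, and 8 of 10 were lower in KO. Of the 8 fibroblast or feeder cell markers, 3 were tested and were lower, with sums of 15.6 and 26.9 CPM in KO and 41.6 and 64.0 in WT. Of the 5 blood cell markers, 2 were tested and 0 passed. Of the 6 markers of the 2-cell-like state, 4 were tested and 2 were higher, with sums of 7.31 and 14.3 CPM in KO and 3.54 and 1.81 in WT. The part of these cells in the values below was not tested. Fewer cells of a type and less RNA per cell cannot be told apart in such bulk libraries.

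Of the proteasome transcripts, 1 passed the test between KO and WT: Psme2, the beta subunit of the PA28 activator, was 2.22 times as abundant in KO. The next in size were Psme1, with a log2 fold change of 0.67 (95% interval 0.18 to 1.16), and Psmd3, with -0.58 (-0.97 to -0.20), which passed under some of the alternatives. With the quasi-likelihood test of edgeR and an adjusted p below 0.05 (Benjamini-Hochberg over 14427 genes), 1 of the 44 genes was higher and 0 were lower. Over all genes tested, 12.4% were called, 7.42% higher and 4.96% lower. At an unadjusted p below 0.05 the count was 2 higher and 5 lower, against 15.3% and 13% of all genes, and the DESeq2 test called 2 higher and 1 lower. The median log2 fold change (KO over WT) of the members was -0.11, against -0.01 for all genes tested. It lay between -0.14 and -0.09 with any 1 library left out. In 33 of the 44 genes the estimate was under 1.2-fold in either direction, against 5540 of the 14427 genes tested. The 95% interval of the fold change lay inside a 1.5-fold change either way in 30 of them, and inside a 2-fold change in 42. Among all genes with a mean of at least 20 CPM, 32.5% had an interval inside 1.5-fold. Neither that set nor all genes tested were matched to the level of the members, whose median WT mean was 213 CPM. Intervals narrow, and estimates scatter less, as counts rise. Signs were mostly negative, 28 against 16, where all genes tested had 7289 negative and 7138 positive. The sign of 12 members turned under at least 1 alternative. The KO libraries lay on 1 side of both WT libraries in 27 members, 20 below and 7 above, while 57.9% of all genes tested had no overlap, 28.5% with KO below and 29.4% above.

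**Figure D1:**
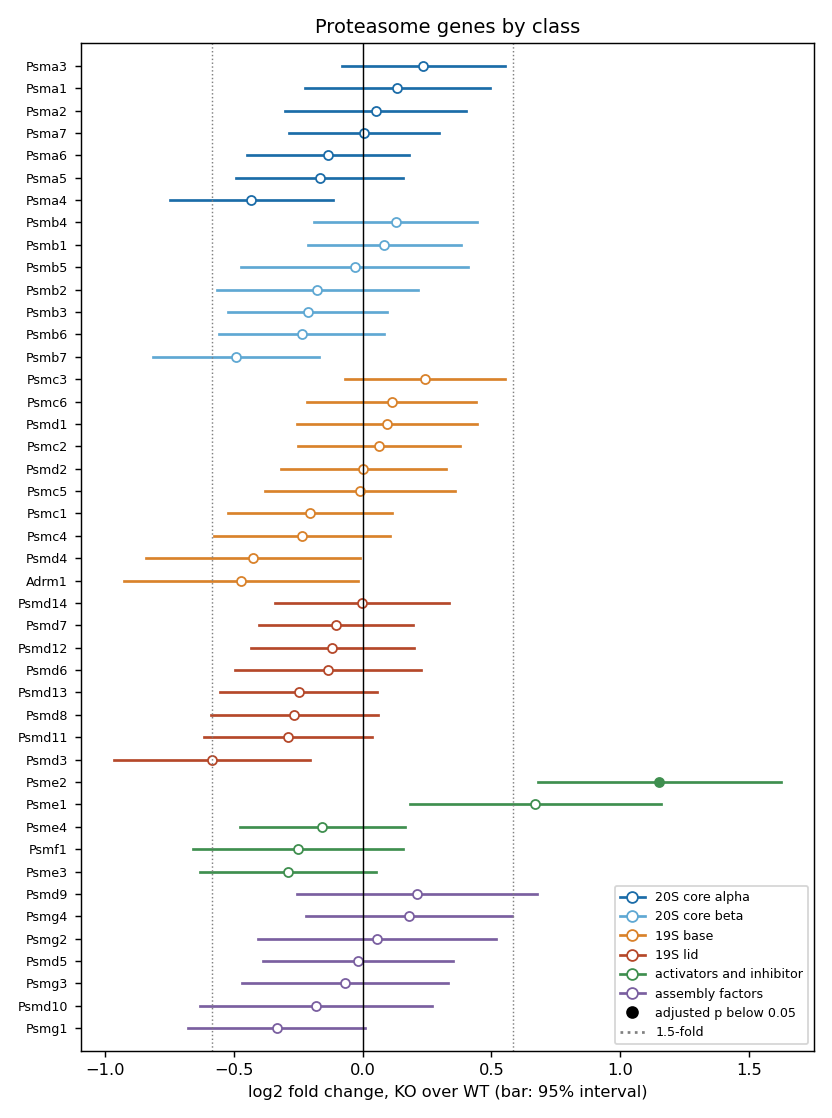
Log2 fold change of each of the 44 proteasome genes, KO over WT (x axis), with its 95% interval as a bar, grouped and coloured by class; dotted lines mark a 1.5-fold change. The 1 filled point is Psme2, with a log2 fold change of 1.15, and the lid genes shown all sit at or left of 0.

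The alpha subunits, which form the outer rings of the core, had a median log2 fold change of 0.01, a value whose sign turned with DESeq2 size factors (-0.003) and which lay between -0.11 and 0.04 with 1 library left out, lowest without WT library 2. Of the 7 genes, 0 passed the test, and the range ran from -0.43 to 0.24. Psma4 was at the lower end, with 171 and 178 CPM in KO and 242 and 229.8 in WT. Its libraries did not overlap, and its log2 fold change of -0.43 (SE 0.14) had an adjusted p of 0.0767. Without WT library 2 the adjusted p was 0.045, with a log2 fold change of -0.47. At the upper end, Psma3 had 207 and 199.9 CPM in KO and 175 and 171 in WT, again with no overlap, and a log2 fold change of 0.24 (SE 0.14, adjusted p = 0.314). Psma7 differed least: 559 and 538 CPM in KO lay around 546 and 547 in WT. The interval for Psma7 was -0.29 to 0.30 on the log2 scale. Psma1 and Psma2 overlapped between the groups, and Psma5 and Psma6 lay slightly lower in both KO libraries, with log2 fold changes of -0.17 and -0.13.

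The beta subunits had a median of -0.18, and again 0 of 7 passed. With 1 library left out the median lay between -0.26 (without WT library 1) and -0.11 (without KO library 2). Psmb7, which carries the trypsin-like site, had 229 and 249.8 CPM in KO and 317 and 357 in WT. The KO libraries lay below the WT libraries without overlap, and the log2 fold change was -0.49 (SE 0.14, adjusted p = 0.0544). Without WT library 1 it was -0.58 with an adjusted p of 0.0165, and without a filter on low counts it was -0.49 with an adjusted p of 0.0265. Psmb7 lies on chromosome 2 and shares exon sequence with Nek6 on the other strand. Nek6 held 10.8% as many counts as Psmb7, and with those counts added the log2 fold change was -0.49 (adjusted p = 0.0582). The other catalytic genes did not pass either. Psmb6, of the caspase-like site, had 265 CPM in each KO library and 290.2 and 333 in WT, a log2 fold change of -0.24 (SE 0.14). Psmb5, of the chymotrypsin-like site and the usual target of proteasome inhibitors, had 32.5 and 33.1 CPM in KO and 36.3 and 30.6 in WT, which overlap. On the structural side, Psmb4 was at the top of the class with 428 and 368 CPM in KO and 362 and 366 in WT (log2 fold change 0.13, SE 0.14). Psmb1, Psmb2 and Psmb3 had log2 fold changes of 0.08, -0.18 and -0.21.

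**Figure D2:**
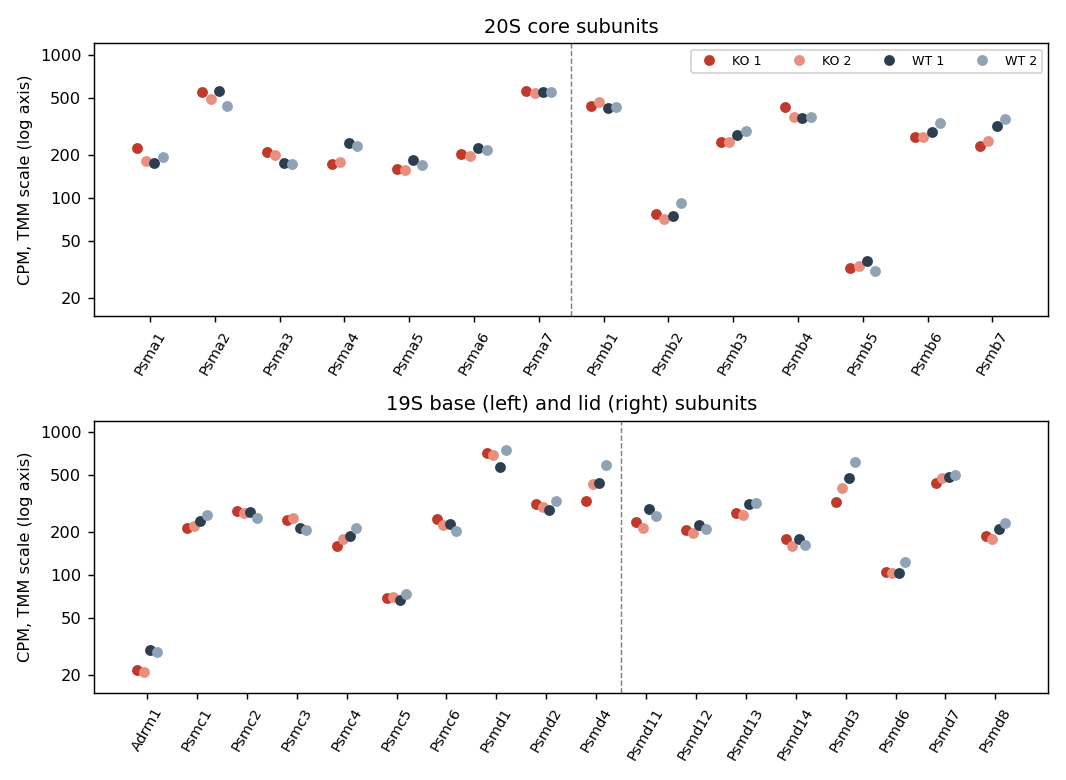
Transcript level in CPM (y axis, log scale, TMM scale) of each subunit of the 20S core (top, alpha left and beta right of the dashed line) and of the 19S cap (bottom, base left and lid right), with 1 point per library. Both KO points lie below both WT points in 16 of the 32 genes, among them Psma4, Psmb7 and Psmd3, and above them in 4. Over all genes tested, 28.5% had both KO libraries below both WT libraries and 29.4% had them above.

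The base of the 19S cap holds the ATPases Psmc1 to Psmc6, the scaffold subunits Psmd1 and Psmd2, and the ubiquitin receptors Psmd4 and Adrm1. Its median was -0.003, with a value of -0.09 without WT library 1, and 0 of 10 passed. Adrm1 and Psmd4 were at the lower end. Adrm1 (RPN13) had 21.6 and 20.8 CPM in KO and 29.96 and 28.9 in WT, and its log2 fold change was -0.47 (SE 0.20, adjusted p = 0.162). Psmd4 (RPN10) had 328 and 432 CPM in KO and 438 and 583 in WT, so that KO library 2 and WT library 1 nearly met, and its log2 fold change was -0.43 (SE 0.19, adjusted p = 0.169). With 1 library left out the Psmd4 estimate lay between -0.63 and -0.21. Without WT library 1 Psmd4 passed (-0.62, adjusted p = 0.0208), and it passed without a filter on low counts (-0.42, adjusted p = 0.0494). Of the ATPases, Psmc3 was highest relative to WT, with 243 and 250.5 CPM in KO and 212 and 205 in WT (log2 fold change 0.24, SE 0.14, adjusted p = 0.29), and Psmc4 was lowest, with -0.24. The other 4 ATPases lay between -0.21 (Psmc1) and 0.11 (Psmc6). Psmd1 had 713 and 690.5 CPM in KO and 569 and 745 in WT, and Psmd2 had 316 and 298 in KO and 287 and 327 in WT. The groups overlapped for both scaffold genes.

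In the lid, the estimates of all 8 members were below 0, with a median of -0.19 and 0 calls. The lid peptide Sem1, which the rule for members leaves out, had a log2 fold change of 0.03. For Psmd14, which encodes the enzyme that cuts the ubiquitin chain off, the estimate was -0.003 (95% interval -0.34 to 0.33), and its sign turned under 4 alternatives, so its direction is not set. KO levels of Psmd14 were 178 and 160.1 CPM and WT levels 178 and 162. Psmd3 (RPN3), a scaffold subunit on chromosome 11, was at the other end, with 325 and 403 CPM in KO and 479.8 and 611 in WT. Both KO libraries were below both WT libraries, but the libraries of a group also differed from each other, and the log2 fold change of -0.58 (SE 0.17) had an adjusted p of 0.0531. It lay between -0.75 and -0.40 with 1 library left out, and passed without WT library 1 (adjusted p = 0.00499), with the DESeq2 test (adjusted p = 0.0351) and without a filter on low counts (adjusted p = 0.00229). Psmd11, Psmd8 and Psmd13 had log2 fold changes of -0.29, -0.27 and -0.25, with KO below WT in every library pair. Psmd6, Psmd12 and Psmd7 lay between -0.13 and -0.10.

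Summed over its member genes, which leave out Sem1, the lid had 1948 and 1992 CPM in KO and 2282 and 2420 in WT. The sums of the alpha subunits (2067 and 1939 in KO, 2101 and 1967 in WT) and of the base (2590.5 and 2654 in KO, 2533 and 2891 in WT) overlapped between the groups. For the beta subunits the sums were 1711 and 1700.2 in KO and 1778 and 1901 in WT, also lower in both KO libraries. The lid sum was therefore lower in both KO libraries, by more than the difference within either pair, while the base sum differed more between the WT libraries than between the group means. The lid sum is led by Psmd3, Psmd7 and Psmd13, its most abundant transcripts in WT. The mean lid sum was 1970 in KO and 2351 in WT, and the largest gap within it was that of Psmd3, with means of 364 and 546. Psmd7 had means of 460 in KO and 494 in WT. No test was made of a sum.

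**Figure D3:**
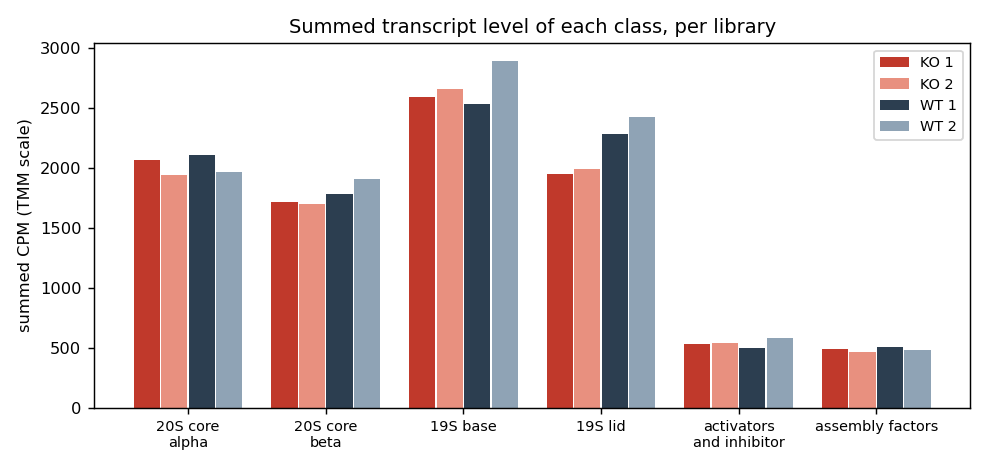
Summed CPM (y axis, TMM scale) of the genes of each proteasome class, with 1 bar per library. The lid bars are 1948 and 1992 in KO and 2282 and 2420 in WT, and the bars of the alpha subunits, base, activators and assembly factors overlap between the groups.

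The activators went in different directions. Psme2 rose: it had 36.3 and 32.8 CPM in KO (34.5 ± 2.48, SD, n = 2) and 14.8 and 16.3 in WT (15.5 ± 1.09). All KO values were above all WT values, and the log2 fold change was 1.15 (SE 0.21, 95% interval 0.68 to 1.62, adjusted p = 0.0097). The call was lost without KO library 1 (1.08, adjusted p = 0.063) and held in each of the other 11 alternatives, where adjusted p-values lay between 0.000179 and 0.0347. Psme1 encodes the partner subunit of the same ring. Its levels were 89.9 and 102 CPM in KO and 47.7 and 73.3 in WT, and the log2 fold change was 0.67 (SE 0.22, adjusted p = 0.0748). WT library 2 lay nearer to KO than WT library 1 did. Without WT library 2 the log2 fold change was 1.01 (adjusted p = 0.00156), and without WT library 1 it was 0.39 (adjusted p = 0.167). Psme1 also passed with the DESeq2 test (adjusted p = 0.0492) and without a filter on low counts (adjusted p = 0.00855). The other caps and the inhibitor did not share this direction. Psme3, the nuclear PA28 gamma, had 126 and 128 CPM in KO and 144 and 166 in WT (log2 fold change -0.29, SE 0.15, adjusted p = 0.252). Psme4, the PA200 cap, and Psmf1, the inhibitor PI31, had -0.16 and -0.25, both with KO below WT in every library pair.

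Psme1 and Psme2 lie near each other on chromosome 14 of GRCm38, with 5911 bases between their 3' ends. Psme1 is at 55578123 to 55581529 on the plus strand and Psme2 at 55587441 to 55591113 on the minus strand. The end of the Psme2 transcript matched the paralog Psme2b over 300 bases at 99% identity, and the counting could have divided reads among the pair. Psme2b had 35 and 39 counts in KO and 15 and 19 in WT (log2 fold change 0.96, SE 0.50, adjusted p = 0.247), and with its counts added Psme2 gave 1.14 (adjusted p = 0.00956). Emc9, which overlaps an exon of Psme1 on the other strand, held 2.22% as many counts as Psme1.

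**Figure D4:**
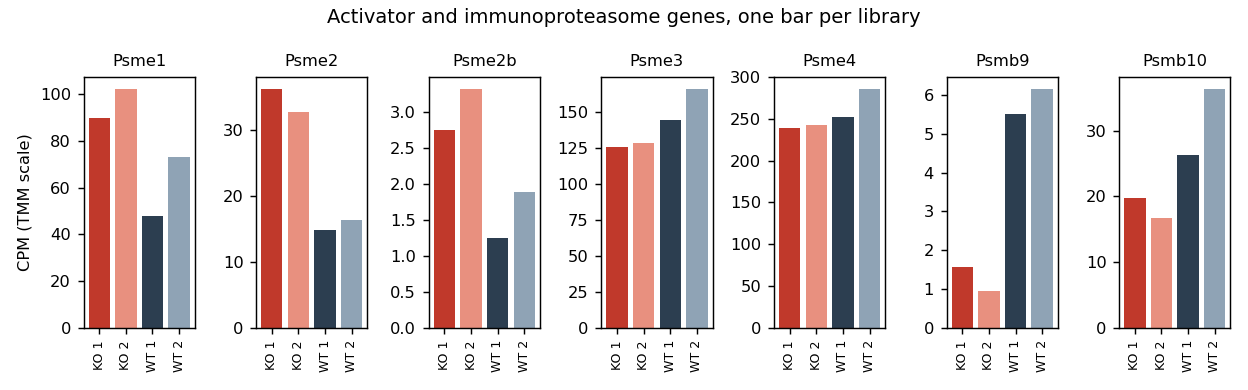
CPM (y axis, TMM scale, 1 axis range per gene) of the activators Psme1 to Psme4, the paralog Psme2b and the immunoproteasome genes Psmb9 and Psmb10, with 1 bar per library. Psme1 and Psme2 are higher in both KO libraries, and Psmb9 and Psmb10 are lower.

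Of the immunoproteasome genes, which are not members, Psmb9 and Psmb10 had the opposite sign. Psmb9 fell, with 20 and 11 counts in KO and 66 and 62 in WT, a log2 fold change of -2.20 (SE 0.46, adjusted p = 0.0169), and the call was lost without KO library 2 (-1.88, adjusted p = 0.0921). Psmb10 had 19.8 and 16.7 CPM in KO and 26.4 and 36.4 in WT (log2 fold change -0.78, SE 0.24, adjusted p = 0.0626), and passed without WT library 1 (-0.997, adjusted p = 0.0102) and without a filter on low counts (-0.77, adjusted p = 0.0261). Psmb8 held 2 and 4 counts in KO and 0 and 1 in WT, too few to be tested. Their levels were low beside those of the constitutive genes that they replace: Psmb9 had 1.57 and 0.939 CPM in KO and 5.51 and 6.17 in WT, where Psmb6 had 265 CPM in each KO library and 290.2 and 333 in WT. Such 3' tag counts do not grow with transcript length, and how well each 3' end is captured was not measured.

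Promoters are shown for Psme1, Psme2 and Psmb9, picked from the interferon-responsive group with their values in view. Those of Psmb8 and Psmb10 are not shown, so the motif is reported for only part of that group. They are from RefSeq (GRCm38.p6), from 250 bases before to 50 after a gene start, 5' to 3' on the gene's strand, and capitals mark TTTCNNTTTC, the repeat found in interferon-stimulated response elements. That motif was chosen after the values were seen, and both strands were searched. It was found at position 9 after the start in Psme1 and was not found in the windows of Psme2 or Psmb9. A match describes the letters and not a bound factor. Of Psme2's windows, that nearest to its GENCODE start is given.
Psme1 (chr14:55578244-55578543, plus): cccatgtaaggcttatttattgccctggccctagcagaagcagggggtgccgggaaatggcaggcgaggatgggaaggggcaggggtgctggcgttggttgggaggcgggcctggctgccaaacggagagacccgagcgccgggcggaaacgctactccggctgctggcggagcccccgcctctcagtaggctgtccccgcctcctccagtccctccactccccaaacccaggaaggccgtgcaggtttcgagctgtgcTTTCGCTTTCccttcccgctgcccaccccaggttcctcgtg
Psme2 (chr14:55591052-55591351, minus): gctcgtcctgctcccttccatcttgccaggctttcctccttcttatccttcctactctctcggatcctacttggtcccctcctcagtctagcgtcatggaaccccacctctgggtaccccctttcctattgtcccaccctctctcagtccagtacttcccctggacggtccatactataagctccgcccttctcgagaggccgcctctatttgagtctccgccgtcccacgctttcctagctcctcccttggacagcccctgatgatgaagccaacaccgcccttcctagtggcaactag
Psmb9 (chr17:34187281-34187580, minus): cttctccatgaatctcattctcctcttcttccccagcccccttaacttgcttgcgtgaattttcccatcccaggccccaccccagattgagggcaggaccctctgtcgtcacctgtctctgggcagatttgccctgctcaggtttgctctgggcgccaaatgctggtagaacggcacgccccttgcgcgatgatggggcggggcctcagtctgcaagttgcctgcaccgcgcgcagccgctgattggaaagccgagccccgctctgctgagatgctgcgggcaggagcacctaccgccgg

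TTTCNNTTTC was in 5 of 40 promoters of members (12.5%), those of Psme1, Psmb3, Psmd4, Psmd9 and Psmg4, and in 3.44% of 32851 promoters in all. Of these 5 genes 0 passed the test, and their log2 fold changes had both signs. RefSeq promoters matched 37 of the 44 members by symbol. The core of the antioxidant response element, TGACNNNGC, through which NFE2L1 raises proteasome genes when proteasome activity falls, was in 7 of the 40 (17.5%) and in 12.4% of all, counting both strands. The 7 genes were Adrm1, Psmb5, Psmb6, Psmc6, Psmd9, Psmd12 and Psme4, with log2 fold changes from -0.47 (Adrm1) to 0.21 (Psmd9). CCAAT, the NF-Y motif, was in 32.5% of the members' promoters and 37.4% of all.

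The assembly factors act before the mature particle exists: Psmg1 to Psmg4 build the alpha ring, and Psmd5, Psmd9 and Psmd10 guide the base. Their median was -0.02, and 0 of 7 passed. The sign of the median was not stable: with 1 library left out it lay between -0.09 (without KO library 1) and 0.08 (without WT library 1). Psmg1 was at the lower end, with 89.1 and 84.3 CPM in KO and 110.1 and 108 in WT, no overlap, and a log2 fold change of -0.33 (SE 0.15, adjusted p = 0.19). Its partner Psmg2 overlapped between the groups (91.8 and 64.3 in KO, 82.1 and 68.0 in WT). Psmd9 was at the upper end with 28.6 and 30.5 CPM in KO and 23.2 and 27.9 in WT (log2 fold change 0.21, SE 0.21). Psmg3, Psmg4, Psmd5 and Psmd10 also overlapped, with log2 fold changes between -0.18 and 0.18.

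On the CPM scale, which for 3' tags is not divided by transcript length, levels spread widely between proteasome genes. In WT the mean ran from 15.5 CPM (Psme2) to 657 (Psmd1), with a median of 213, and the order was led by Psmd1, Psma7, Psmd3, Psmd4 and Psma2. Their means were Psmd1 657 ± 125, Psmd3 546 ± 93.0, Psma7 546 ± 0.46, Psmd4 511 ± 102 and Psma2 499 ± 84.4. Among these, Psmd1 was highest in both WT libraries (569 and 745 CPM), and Psmd3 was above Psmd4 in both. The order within every other pair of them changed from 1 WT library to the other. Apart from Psme2, the lowest were Psmd9 (25.5 ± 3.29), Adrm1 (29.5 ± 0.717) and Psmb5 (33.5 ± 4.01). The SD of a gene was a median of 7.35% of its mean in WT and 3.96% in KO. Of the members 10 had a near copy elsewhere, mostly processed pseudogenes (at least 95% identity over at least 100 of the last 300 bases), and these copies held 1.73% as many counts as the genes they resemble. The shares were largest for Adrm1 (12.9%) and Psme2 (9.11%). Adding the copies, or the genes that overlap an exon, changed no call.

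MicroRNAs bind transcripts mainly through the seed at their 5' end. Of the cluster's 3' arms with the seed core AAGUGC, those matched in the RefSeq table are printed with bases 2 to 8 in capitals (RefSeq, GRCm38.p6), since the sites searched complement bases 2 to 7, which these 5 share. The arm miR-292a-3p was not matched.
miR-290a-3p: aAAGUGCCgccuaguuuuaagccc
miR-291a-3p: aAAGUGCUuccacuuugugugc
miR-291b-3p: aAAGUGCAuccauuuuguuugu
miR-294-3p: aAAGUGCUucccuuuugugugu
miR-295-3p: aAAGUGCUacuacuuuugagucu

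GCACTT, the match to bases 2 to 7, was in the longest annotated 3' UTR (GENCODE vM21) of 6 of 44 proteasome genes (13.6%), against 29.9% of 21104 protein-coding genes. The members' 3' UTRs were also shorter, with a median of 357 bases against 1086. AGCACTT, the match to bases 2 to 8 of miR-291a-3p, miR-294-3p and miR-295-3p, or GCACTTA, the 6-base match followed by A, was in 5 members (11.4%), against 18.4% of all. Matches to base 8 of miR-290a-3p and miR-291b-3p were not searched. For each of the 6 genes the first match is shown with its flanks as DNA of the transcript's strand, with GCACTT in capitals.
Psma3: atccagtacaGCACTTgaaacaaaaa
Psmd2: tctgtagtgaGCACTTtgactctaag
Psmd5: cacagctccaGCACTTggtttcctga
Psme3: cctctggcccGCACTTgtcttctcct
Psmf1: taaataaataGCACTTtataacctgt
Psmg3: gtgtgcaggaGCACTTgtgggaagat

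Of these genes 0 were called, and their log2 fold changes were 0.24 for Psma3, 0.002 for Psmd2, -0.02 for Psmd5, -0.29 for Psme3, -0.25 for Psmf1 and -0.07 for Psmg3. Their median was -0.04, next to -0.13 for the 38 members without a match. Psme2 had none in this 3' UTR. A match in the longest 3' UTR may lie outside the 3' UTR used in these cells.

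The genes around the proteasome were read from a list of 39 symbols, of which 35 were tested: 1 was higher and 2 were lower. Over all genes tested, 7.42% were called higher and 4.96% lower. The median log2 fold change of the list was 0.05. Nfe2l2 (NRF2), a transcription factor of the oxidative stress response, rose, with 207 and 189.6 CPM in KO and 106 and 116 in WT (log2 fold change 0.84, SE 0.15, adjusted p = 0.00928). Ubqln4, a shuttle that brings ubiquitinated proteins to the proteasome, fell, with 56.3 and 68.3 CPM in KO and 129.8 and 118 in WT (log2 fold change -0.99, SE 0.17, adjusted p = 0.00753). Psmb9 was the other gene that fell. Without KO library 1 the calls of Nfe2l2 (0.78, adjusted p = 0.0755) and Ubqln4 (-0.85, adjusted p = 0.0764) were lost. Nfe2l1, which drives proteasome genes, had 98.1 and 100.6 CPM in KO and 78.5 and 83.5 in WT, with no overlap and a log2 fold change of 0.29 (SE 0.16, adjusted p = 0.25). Zfand5, a proteasome-binding zinc finger protein, and Nfyc, an NF-Y subunit, had 0.50 (adjusted p = 0.13) and 0.50 (adjusted p = 0.153), and both passed without WT library 1 (0.78, adjusted p = 0.01, and 0.74, adjusted p = 0.0292). The lid peptide Sem1, the maturation factor Pomp and the deubiquitinases Usp14 and Uchl5 did not pass, with log2 fold changes of 0.03, -0.14, 0.20 and -0.12. Of the 6 ubiquitin and E1 genes 0 passed.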

How the data were processed

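The 4 QuantSeq 3' tag libraries of poly(A) RNA were compared, using 1 table in which the authors deposited raw counts for each Ensembl identifier. The submitters' processing notes name Trim Galore and GRCm38. No aligner, counter or strand setting is given in the sources used. GENCODE vM21 named 55240 of 55421 identifiers. After filterByExpr and TMM scaling, KO was set against WT with edgeR 4.0.16 in R 4.3.3 (two-sided quasi-likelihood F test, Benjamini-Hochberg over 14427 genes, threshold 0.05). SE is the size of the log2 fold change over the square root of F. CPM are on the TMM scale, except the sums of marker lists, which are per 1000000 of the library total. Near copies were found with blastn 2.17.0. Alternatives were DESeq2 1.42.0, other scalings and filters, the replicate block and each library left out. Adding near copies or overlapping genes was an alternative chosen after seeing the data. Genes named with values were the called members, the highest and lowest of each class and, of the related genes, those called, the 6 with the smallest p and a set of 8. Others given with values per library (Psma7, Psmb5, Psmb6, Psmd1, Psmd2, Psmd4, Psme1, Psmg2 and Psme2b) were singled out with their values in view. The members and lists were chosen with earlier results of these data known. The code was tested on simulated counts. Replicates differed beyond sampling noise (chi-square per degree of freedom 11.3 in KO, 18.9 in WT). Limits from a count of 0 cover counting error only, because reads lacking molecular identifiers may be copies of one molecule.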

Additional observations from a re-analysis of the deposited data

How the results depend on the processing

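Of 528 values (44 genes under 12 alternatives), 489 kept their direction and their side of the threshold, 1 lost its call, 12 gained one and 26 changed sign, in 12 genes whose log2 fold change was at most 0.134 in size. The number of members higher in KO was 1, and 2 with the DESeq2 test or with no filter on low counts, and between 0 and 2 with 1 library left out. The number lower was 0, and 1 with the DESeq2 test, 3 with no filter, 1 with the replicate block (Psmd3) and between 0 and 3 with 1 library left out. The related genes gave 1 higher and 2 lower, with 0 to 5 higher and 1 to 3 lower with 1 library left out, and 1 lower at a mean CPM of at least 10, where Psmb9 was not tested. Over all genes, the 1071 higher and 715 lower became 636 and 391 at a mean CPM of at least 10, 638 and 370 with the replicate block, and 1193 lower with no filter. With 1 library left out the lowest and highest counts were 556 and 1477 higher and 285 and 1011 lower, the lone library being assumed to vary like the other pair. The cause of these changes was not tested. The medians of the alpha subunits and of the base lay between -0.1124 and 0.0383 and between -0.0924 and 0.0156 with 1 library left out. Those of the beta subunits and the assembly factors lay between -0.2631 and -0.1103 and between -0.0886 and 0.0788.

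With 1 library left out the log2 fold changes of 14 genes, 2 of them related genes, took both signs across these fits. Only the members and the tested related genes named with values were followed here, and the other related genes were not. In the core these were Psma1 between -0.0179 and 0.2816, Psma2 between -0.1124 and 0.2309, Psma7 between -0.0163 and 0.0383, Psmb5 between -0.1473 and 0.0941. Among the 19S subunits and their chaperones they were Psmc2 between -0.0099 and 0.1367, Psmc5 between -0.0865 and 0.0667, Psmd1 between -0.091 and 0.3014, Psmd14 between -0.0775 and 0.0796, Psmd2 between -0.0937 and 0.0985, Psmd5 between -0.1416 and 0.113. The others were Psmg2 between -0.2175 and 0.2948, Psmg3 between -0.1991 and 0.0686, Sem1 between -0.0851 and 0.1406, Uchl5 between -0.2535 and 0.0146. With DESeq2 size factors Psma7 was -0.0028 and Psmd2 -0.0061, with library totals only Psmd2 was -0.0019, and at a mean CPM of at least 10 Psma7 was -0.0172 and Psmd2 -0.0211. Psmd14 was 0.0005 with the DESeq2 test and 0.0021 with no filter.

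The labels give the groups the same replicate numbers but do not say that a number marks a shared batch, and same-numbered libraries deviated with a correlation of -0.0703, so the numbers were not taken to pair the libraries. With the replicate block Psmd3 gave -0.58 (adjusted p = 0.0424) and Psme2 1.15 (adjusted p = 0.0347), and no other member was called. Between 164 and 9062 counts lay behind each member and library.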
